A study of Mus musculus with 27 samples.

Results

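The genes with the symbols Zfp700 to Zfp999 encode zinc finger proteins, most of them DNA-binding proteins with a row of C2H2 fingers. They were chosen by symbol alone, and 132 of the 39971 gene rows in the deposited table matched, with 131 distinct symbols because Zfp783 was listed under 2 gene identifiers. The symbol range was proposed with earlier results of these libraries known, so the counts of genes below describe the family and are no independent support for its direction. RNA from colon was sequenced in 27 wild-type BALB/c mice, and p-values measure the spread between these mice.

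The groups were named by the study. NC mice (n = 6) received saline alone and gave colon. All other groups received AOM/DSS, which is the carcinogen azoxymethane followed by dextran sulfate sodium, an irritant of the colon, and gave a segment of colon that carried tumors. CAC mice (n = 5) received saline by both routes, CAC_F mice (n = 5) received FOLFOX by injection and saline by gavage, and CAC_FP mice (n = 5) received FOLFOX with a complex of probiotics. CAC_FPL mice (n = 6) received FOLFOX, the probiotics and loperamide, an opioid agonist that slows the gut. FOLFOX combines folinic acid, fluorouracil and oxaliplatin, and tissue was taken 1 week after chemotherapy began. Tissue source and AOM/DSS exposure coincide, so their effects cannot be told apart.

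Most mouse genes of this kind carry a KRAB box, a short domain that binds the scaffold protein TRIM28 (KAP1). TRIM28 brings the histone methyltransferase SETDB1 and other silencing factors to the DNA that the fingers recognise, which is often an endogenous retrovirus or another mobile element. The genes arose by repeated local duplication, so they sit in clusters of near copies and differ between mouse strains.

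Of the 132 rows, 119 carried the label zf-C2H2 in the deposited transcription factor column. Open reading frames read from GENCODE M21 transcripts for 128 rows held a median of 11 C2H2 fingers (range 0 to 23), and 79 had at least 10. A KRAB A box motif was found in 100 of the 128 and not in 28. Chromosome 7 held 25 rows, chromosome 17 held 21, chromosome 4 held 16, chromosome 8 held 14, chromosome 2 held 13 and chromosome 13 held 11. With neighbours no more than 1 Mb apart and at least 4 genes per group, 82 rows fell into 10 position clusters and 50 lay outside them. Coordinates below are those deposited, and no source used here names their genome build. They differ from GENCODE M21 (GRCm38) for all 131 rows found there.

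Near copies matter for the counts. For 23 rows at least 20% of the 100-base words in their transcripts also occurred in another gene's transcripts, and 64 rows shared none. Where copies share reads, the split of counts between them is uncertain, and such genes are marked below. Promoters show the duplication most directly, so 4 genes that fell with FOLFOX and 1 that rose are shown with the 250 bases before the RefSeq start (GRCm38.p6, 5′ to 3′). Capitals mark CCAAT or its complement ATTGG, a short motif bound by the factor NF-Y.
Zfp968 (chr2:175372186-175372435, + strand): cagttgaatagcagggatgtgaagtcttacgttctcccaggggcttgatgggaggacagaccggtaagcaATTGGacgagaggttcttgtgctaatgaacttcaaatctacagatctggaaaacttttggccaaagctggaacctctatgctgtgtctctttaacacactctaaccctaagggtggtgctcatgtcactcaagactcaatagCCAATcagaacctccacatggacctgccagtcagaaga
Zfp966 (chr2:175931101-175931350, - strand): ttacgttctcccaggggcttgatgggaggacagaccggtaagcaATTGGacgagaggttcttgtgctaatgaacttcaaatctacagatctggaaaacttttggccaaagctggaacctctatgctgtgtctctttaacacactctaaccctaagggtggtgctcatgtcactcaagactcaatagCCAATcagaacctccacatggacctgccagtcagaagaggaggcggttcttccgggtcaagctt
Zfp931 (chr2:178078426-178078675, - strand): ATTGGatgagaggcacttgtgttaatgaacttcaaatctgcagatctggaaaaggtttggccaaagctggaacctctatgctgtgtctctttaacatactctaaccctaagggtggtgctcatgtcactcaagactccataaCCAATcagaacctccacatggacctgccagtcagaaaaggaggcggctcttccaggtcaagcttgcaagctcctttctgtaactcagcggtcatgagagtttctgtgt
Zfp963 (chr8:69749963-69750212, - strand): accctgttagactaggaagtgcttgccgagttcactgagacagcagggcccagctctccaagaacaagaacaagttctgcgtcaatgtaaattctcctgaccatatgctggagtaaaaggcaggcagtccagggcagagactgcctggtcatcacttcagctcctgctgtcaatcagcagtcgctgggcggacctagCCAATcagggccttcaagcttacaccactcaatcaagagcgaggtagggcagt
Zfp809 (chr9:22225453-22225702, + strand): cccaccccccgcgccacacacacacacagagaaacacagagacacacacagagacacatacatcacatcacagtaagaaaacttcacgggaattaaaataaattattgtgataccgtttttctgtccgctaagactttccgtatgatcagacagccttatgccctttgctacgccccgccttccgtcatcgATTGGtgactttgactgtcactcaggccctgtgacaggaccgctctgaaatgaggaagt
The Zfp968 and Zfp966 promoters shared an identical run of 224 bases, although their genes lie apart on chromosome 2, and both shared a run of 41 bases with Zfp931. The Zfp963 and Zfp809 promoters shared at most 11 bases in a row with any other of these promoters. In the whole RefSeq windows of 300 bases (250 before to 50 after the start, either strand), CCAAT was present in 66.2% of 130 promoters of 111 symbols in the family. It was present in 37.4% of all 32851 mouse promoters. TATAAA was present in 5.39% of family promoters against 13.6% of all promoters, and GGGCGG in 40.8% against 35.7%. GGAAGT, which can lie in an ETS factor site, was present in 41.5% against 23.8%. Duplicated promoters are not independent, and a match is only a match of letters.

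Library totals were 56687812 to 79709845 counts, and the family took 0.144% to 0.180% of them. Levels were low. A gene was tested when it had an FPKM (the authors' level per length and depth) of at least 1 in at least 5 of 27 libraries, and 87 of the 132 rows passed, of 15080 genes in all. The tested genes had a median mean FPKM of 2.70 (range 0.814 to 29.5), and 58 of them reached an FPKM of 1 in every library. The 45 untested rows had a mean FPKM of at most 0.756, 28 of them were at 0.1 or more, and 2 had no count in any library. Zfp850 passed with 6 libraries and had its highest mean in CAC_F (1.07 FPKM against 0.82 in CAC), whereas Zfp775 missed with 4 libraries and had its lowest mean in CAC_F (0.476 against 0.936). The tested genes are therefore not a neutral sample of the family.

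Per length, the 3 highest levels belonged to genes with no KRAB match and at most 2 finger matches. Zfp706, a small protein that in mouse embryonic stem cells restrains self-renewal, had a mean of 29.5 FPKM over all libraries. Zfp703, a transcriptional corepressor whose human counterpart is amplified in breast cancer, had 19.2 FPKM, and Zfp740 had 16.2 FPKM. Zfp868, with a KRAB box, had 12.1 FPKM, and Zfp768, whose human counterpart binds old MIR repeats, had 9.32 FPKM. Of these 5 genes only Zfp868 had a KRAB A box match.

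Zfp706 measured 27.0 ± 4.20 FPKM in CAC (SD, n = 5) and 30.5 ± 3.32 in CAC_F (SD, n = 5), and its groups overlapped. Its log2 fold change for CAC_F against CAC was 0.10 ± 0.08 (SE, edgeR quasi-likelihood test, adjusted p = 0.343). Zfp740 measured 16.5 ± 0.576 FPKM in CAC and 19.1 ± 2.45 in CAC_F (SD, n = 5 each), with a log2 fold change of 0.13 ± 0.09 (edgeR, adjusted p = 0.255). Zfp703 measured 17.0 ± 4.48 FPKM in CAC and 23.4 ± 8.95 in CAC_F (SD, n = 5 each), with 1 CAC_F library at 147 CPM (a gene's counts relative to the TMM-scaled library total) and the others at 49.8 to 77.7 CPM. None of these 3 changed by the test, and Zfp703 had an edgeR adjusted p of 0.238.

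The first comparison asks what AOM/DSS neoplasia did to the family. No member was called between CAC and NC in edgeR's quasi-likelihood test at an adjusted p below 0.05, and over all genes 0.00663% were called, a single gene. At an unadjusted p below 0.05 there were 3 members (3.45%, against 7.72% of all genes), DESeq2 called 0, and the limma-voom fits called 0. The median log2 fold change of the 87 tested members was 0.08, against 0.01 over all genes. The smallest unadjusted p-values belonged to Zfp710 (log2 fold change -0.38 ± 0.15), Zfp993 (0.55 ± 0.22) and Zfp740 (0.19 ± 0.09), each ± SE, with edgeR adjusted p of 0.534, 0.559 and 0.625. Zfp993 shared 71.9% of its words, mostly with Zfp991, so its counts may include reads of copies. Zfp740 was at 73.9 to 85.8 CPM in NC (median 83.6) and at 86.9 to 101 CPM in CAC, which did not overlap. It was picked for its small p, and how many of all genes did not overlap in this comparison was not counted.

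FOLFOX is the comparison with many calls. Against CAC, 40 of the 87 tested members fell and 5 rose in CAC_F (edgeR adjusted p below 0.05), which is 46.0% and 5.75%. Over all 15080 genes 20.2% fell and 19% rose in this comparison. The members' median log2 fold change was -0.29, against -0.03 for all genes. Of the 45 called, 29 that fell and 4 that rose had groups that did not overlap, which is 72.5% of those that fell. Over all genes 47.4% of those that fell and 56.0% of those that rose did not overlap. At least 2-fold changes were seen in 8 that fell and 3 that rose. How common such changes were over all genes was not counted, so these 2 numbers only describe the members. In bulk tissue, fewer cells of a type and less RNA per cell cannot be told apart.

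The lower level was visible in the mean over the family in each library. The mean log2 CPM over tested members was 3.69 ± 0.06 in NC (SD, n = 6) and 3.78 ± 0.09 in CAC (SD, n = 5). It was 3.44 ± 0.18 in CAC_F (SD, n = 5), 3.61 ± 0.14 in CAC_FP (SD, n = 5) and 3.65 ± 0.08 in CAC_FPL (SD, n = 6). All 5 CAC_F libraries, at 3.13 to 3.58, lay below all 5 CAC libraries, at 3.63 to 3.87. CAC_F replicate 1 was the lowest of all 27 libraries. The same 2 groups measured 3.73 and 3.98 for the mean of the 200 other tested Zfp genes, of which 75 fell and 16 rose (median log2 fold change -0.26). That is 37.5% and 8%, beside 20.2% and 19% of all genes. The difference between the named range and the other Zfp genes was not tested.

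**Figure D1:**
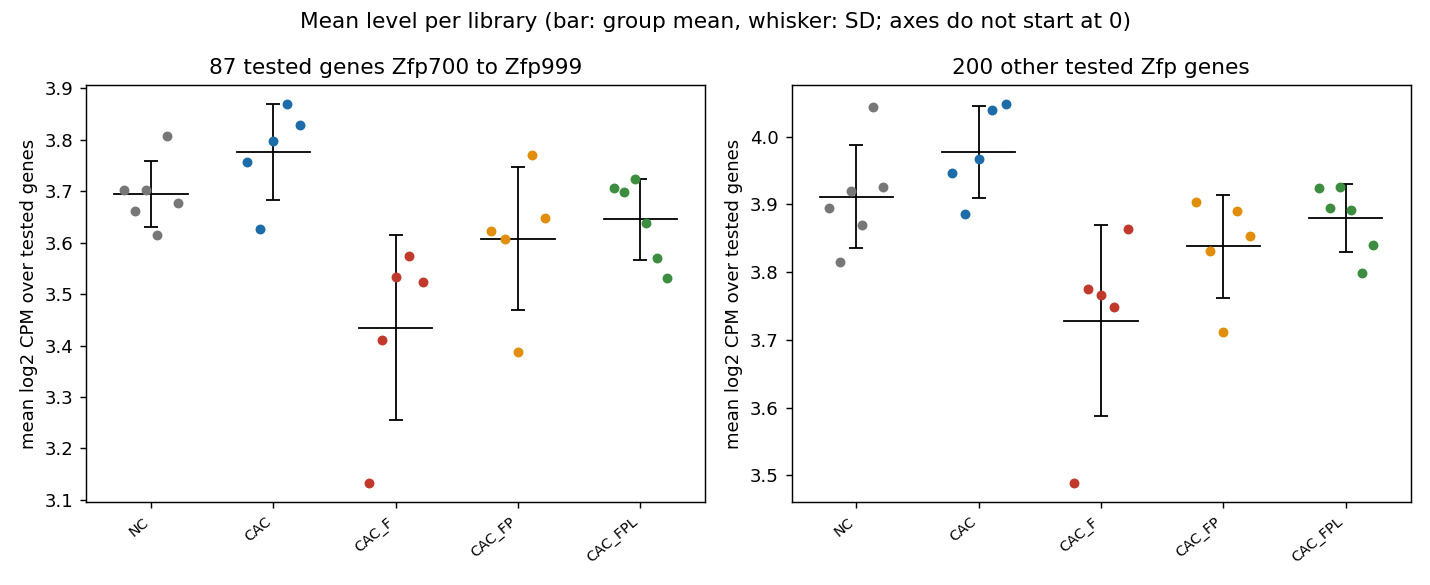
Mean log2 CPM per library over the 87 tested genes Zfp700 to Zfp999 (left) and over 200 other tested Zfp genes (right). Points are libraries, bars are group means and whiskers are SD. On the left the CAC_F libraries lie at 3.13 to 3.58 and the CAC libraries at 3.63 to 3.87.

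Other cell and tissue markers moved in the same comparison, and their part in the result was not tested except where stated. Of 15 tested smooth muscle genes 11 fell, and their summed level was 4152 to 18800 CPM in CAC and 2181 to 3740 CPM in CAC_F. Of 16 lymphocyte genes 6 fell, with sums of 124 to 563 CPM and 131 to 213 CPM. Of 13 tested neutrophil and macrophage genes 8 rose, with sums of 484 to 1165 CPM and 1370 to 2528 CPM. Of 12 epithelial genes 2 rose and 1 fell. No marker on these 4 lists was at 0 in every library of CAC or of CAC_F. A further fit used the smooth muscle level as a covariate, taken as the mean log2 CPM of the tested smooth muscle genes. There 37 members fell and 4 rose, where 17.3% of all genes fell and 16.5% rose.

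The 3 genes with the largest fall, Zfp931, Zfp963 and Zfp873, all had a KRAB box. Zfp931 (chromosome 2, 177709488 to 177720269) was at 6.70, 5.81, 5.69, 6.02 and 6.65 CPM in CAC. In CAC_F it was at 0.43, 0.926, 3.34, 2.06 and 1.82 CPM. Every CAC_F library was below every CAC library, and the CAC_F libraries were spread over a wider range in proportion. Its log2 fold change was -1.85 ± 0.34 (SE, edgeR, adjusted p = 0.000312), with 15.4% of its words shared with other genes. In CAC_FP it was at 3.76, 3.86, 3.58, 4.68 and 4.22 CPM, between the other groups and overlapping neither. In NC it was at 4.14 to 8.35 CPM (median 5.70) and in CAC_FPL at 1.97 to 4.94 CPM (median 4.60).

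Zfp963 (chromosome 8, 70194289 to 70202620) had the smallest adjusted p of the family. It was at 6.07, 7.30, 9.61, 10.9 and 8.47 CPM in CAC and at 2.25, 3.38, 3.89, 2.73 and 3.19 CPM in CAC_F. The groups did not overlap, and the log2 fold change was -1.45 ± 0.17 (SE, edgeR, adjusted p = 1.43e-05). In CAC_FP it was at 5.31, 4.08, 4.00, 4.68 and 4.16 CPM, above every CAC_F library and below every CAC library. It was at 5.78 to 7.97 CPM in NC (median 7.43) and at 3.64 to 6.47 CPM in CAC_FPL (median 5.05). Since 37.8% of its words occur in Gm20422, its counts may include that gene's reads.

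Zfp768 (chromosome 7, 126941967 to 126944761), which shared no words with other genes, fell from a higher level. It was at 33.3, 26.4, 38.0, 29.5 and 29.4 CPM in CAC and at 10.7, 11.4, 14.1, 18.0 and 17.7 CPM in CAC_F, without overlap. Its log2 fold change was -1.12 ± 0.22 (SE, edgeR, adjusted p = 0.000473). Zfp950 (chromosome 19, 61042278 to 61129278), with 17 finger matches, was at 24.6, 24.2, 32.9, 30.8 and 28.4 CPM in CAC. In CAC_F it was at 4.00, 6.45, 18.7, 15.6 and 20.3 CPM, so replicates 1 and 2 were much lower than the other 3. Its log2 fold change of -1.11 ± 0.30 (SE, edgeR, adjusted p = 0.00482) became -0.60 without those 2 libraries (edgeR, adjusted p = 0.026). The call was lost when only the compared groups were fitted, at a log2 fold change of -1.10 (edgeR, adjusted p = 0.0531).

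The remaining members named for their fall had lower levels. Zfp873 (chromosome 10) was at 5.49 to 8.63 CPM in CAC and 2.05 to 4.09 CPM in CAC_F, a log2 fold change of -1.17 ± 0.22 (SE, edgeR, adjusted p = 0.000303). Zfp953 and Zfp759, neighbours on chromosome 13, had log2 fold changes of -1.10 ± 0.18 and -0.96 ± 0.23 (SE). Zfp953 was at 6.89 to 8.99 CPM in CAC and 2.11 to 4.76 CPM in CAC_F. Zfp759 was at 6.25 to 7.90 CPM in CAC and 1.52 to 5.32 CPM in CAC_F. Zfp983 and Zfp952, both on chromosome 17, had log2 fold changes of -1.05 ± 0.19 and -0.92 ± 0.14 (SE). Zfp983 was at 16.2 to 18.9 CPM in CAC and 4.49 to 11.2 CPM in CAC_F. Zfp975 (chromosome 7) had a log2 fold change of -0.94 ± 0.21 (SE). The CAC and CAC_F libraries overlapped in none of these genes, but they were named from called members chosen for that lack of overlap. The 5 genes named after Zfp873 had edgeR adjusted p from 4.94e-05 to 0.00248.

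Zfp932 (chromosome 5, 110144387 to 110158277) is one of the few members with a known target, since in mouse embryonic stem cells it and its near copy Gm15446 repress a group of endogenous retroviruses. It was at 13.6, 9.53, 12.6, 13.8 and 14.6 CPM in CAC and at 4.25, 7.42, 9.47, 8.09 and 8.79 CPM in CAC_F. The groups were separated by a narrow gap, and the log2 fold change was -0.75 ± 0.16 (SE, edgeR, adjusted p = 0.000754). Gm15446 shares 25.8% of its words, so reads from the pair may be mixed. Among the other members with known roles, Zfp827 and Zfp830 were not called. Zfp827, whose human counterpart brings the NuRD complex to telomeres, had a log2 fold change of 0.21 ± 0.13 and Zfp830, a splicing-associated protein needed in early mouse embryos, had -0.07 ± 0.11 (SE, edgeR, adjusted p = 0.187 and 0.603). Zfp711, whose human counterpart is mutated in X-linked intellectual disability, was too low to be tested, with group means of 0.352 to 0.747 FPKM.

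**Figure D2:**
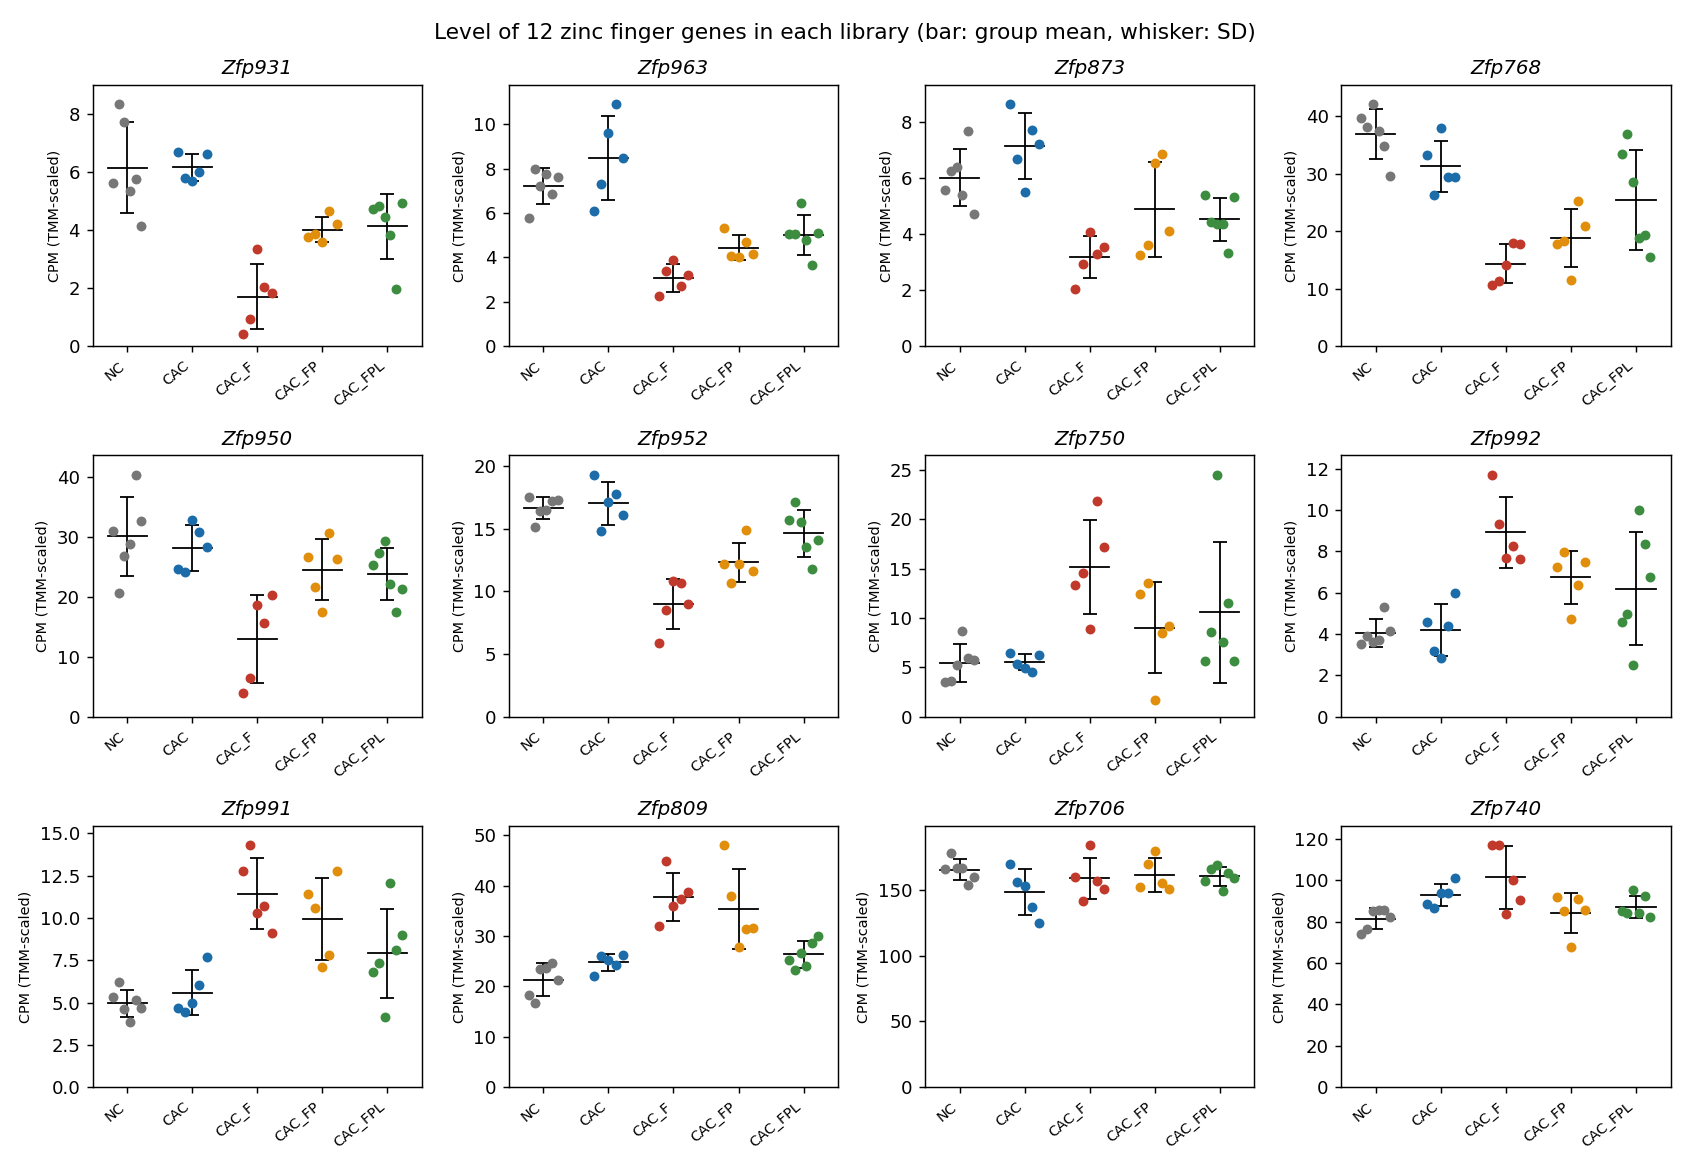
CPM of 12 members in each library, with group means (bars) and SD (whiskers), n = 6, 5, 5, 5 and 6. Zfp931 and Zfp963 are lowest in CAC_F, Zfp992 and Zfp991 highest there, and Zfp706 shows no separation of groups.

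The 5 members that rose with FOLFOX were Zfp750, Zfp992, Zfp991, Zfp809 and Zfp948. Zfp750 (chromosome 11, 121401804 to 121410159) has no C2H2 match and drives late differentiation of keratinocytes. It was at 6.42, 5.34, 4.97, 4.52 and 6.22 CPM in CAC and at 13.3, 14.6, 8.87, 21.8 and 17.2 CPM in CAC_F. The groups did not overlap, and the log2 fold change was 1.46 ± 0.42 (SE, edgeR, adjusted p = 0.00848). With the smooth muscle level as a covariate the call was lost, at a log2 fold change of 1.28 (edgeR, adjusted p = 0.0608). Of 6 tested genes on a list for stratified epithelium 4 rose, and the sum over the 11 genes of that list found in the table was 3.46 to 22.8 CPM in CAC and 24.5 to 63.8 CPM in CAC_F. Krt4, Krt6a, Sprr1a and Grhl3 rose, and no other gene of the list was called. Of the others, Krt14, Krt13, Krt15, Trp63 and Dsg3 had higher means in CAC_F than in CAC. Krt5 and Ivl had lower ones, at 0.0685 against 0.161 CPM and 0.0096 against 0.0167 CPM. No gene of the list was at 0 in every CAC_F library, but Ivl reached at most 0.048 CPM there. The part of that tissue in the rise of Zfp750 was not tested. In CAC_FP 1 library was at 1.65 CPM and the others at 8.44 to 13.5 CPM, and in CAC_FPL 1 library was at 24.5 CPM and the others at 5.60 to 11.5 CPM.

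Zfp809 (chromosome 9, 22137010 to 22151391) binds the primer site of murine leukemia viruses and starts their silencing through TRIM28. It was at 22.0, 26.1, 25.2, 24.2 and 26.3 CPM in CAC and at 31.9, 44.9, 35.9, 37.4 and 38.8 CPM in CAC_F. All CAC_F libraries were above all CAC libraries, and none of its words was shared with another gene. Its log2 fold change was 0.61 ± 0.13 (SE, edgeR, adjusted p = 0.00103). In CAC_FP it was at 48.0, 37.9, 27.9, 31.4 and 31.6 CPM, again above CAC. In CAC_FPL it was at 23.3 to 30.1 CPM (median 26.0) and in NC at 16.7 to 24.7 CPM (median 22.4).

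Zfp992 and Zfp991 lie in the same cluster on chromosome 4, a region whose KRAB zinc finger genes have been linked to retrovirus repression in mouse embryonic stem cells. Zfp992 was at 4.58, 3.19, 2.82, 4.41 and 5.99 CPM in CAC and at 11.7, 9.33, 7.68, 8.24 and 7.61 CPM in CAC_F. Zfp991 was at 4.71, 4.45, 4.99, 6.06 and 7.72 CPM in CAC and at 12.8, 14.3, 10.3, 10.7 and 9.10 CPM in CAC_F. Neither pair of groups overlapped. Zfp992 lay near the filter limit in CAC, at 0.53 to 1.15 FPKM, and was at 1.65 to 2.27 FPKM in CAC_F. Most of the libraries by which it passed the filter belonged to the groups given FOLFOX, where it was higher. The log2 fold changes were 1.09 ± 0.27 and 1.03 ± 0.22 (SE, edgeR, adjusted p = 0.0029 and 0.00108). Zfp991 shared 73.8% of its words, mostly with Znf41-ps, and Zfp992 shared 28.6%, mostly with Zfp991, so a rise of either cannot be told apart from a rise of copies. The fifth, Zfp948 on chromosome 17, had overlapping groups and a log2 fold change of 0.34 ± 0.13 (SE, edgeR, adjusted p = 0.0373). Its call was lost in 9 of 21 alternatives, with adjusted p of up to 0.479 without CAC_F replicates 1 and 2.

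By position, 7 of the 10 clusters held members that fell and none that rose, and the others lay on chromosomes 4, 6 and 17. On chromosome 13 all 4 tested members fell (median log2 fold change -0.81). On chromosome 7 the cluster at 126843446 to 127005994, with Zfp771, Zfp768, Zfp747 and Zfp764, also had 4 of 4 fall (median -0.62). The call of Zfp771 (edgeR, adjusted p = 0.0386) was lost in 13 of 21 alternatives, with the smooth muscle covariate and without any 1 of the CAC_F libraries among them. The cluster at 41282627 to 43267640 on chromosome 7 had 4 of 5 fall (median -0.58), and the one at 6134490 to 7212997 had 2 of 3 fall (median -0.45). On chromosome 2 4 of 6 fell (median -0.59), and Zfp970 there had a log2 fold change of 0.30 ± 0.29 (SE, edgeR, adjusted p = 0.424). Zfp968, Zfp969 and Zfp966 fell with log2 fold changes of -0.60, -0.57 and -0.69, but 98.6%, 100% and 78.7% of their words are shared, so these 3 may be one signal. On chromosome 8 3 of 5 fell (median -0.40).

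The clusters on chromosome 17 differed, and only the first held a member that rose. In the one at 21787270 to 23086108, 6 of 13 fell and 1 rose (median log2 fold change -0.31), and in the one at 32984470 to 33252376, 2 of 5 fell (median -0.28). The cluster on chromosome 6 had no call among 3 tested members (median -0.06; edgeR, 0 at an unadjusted p below 0.05), including Zfp746 (PARIS), a repressor of the gene for PGC-1alpha. The chromosome 4 cluster at 145237329 to 147932823 had 2 rise and 1 fall among 5 tested members (median 0.57). It was also the least measured, since 11 of its 16 members were untested, with mean FPKM of at most 0.492, and 10 of 16 shared at least 20% of their words. Outside the clusters 10 of 34 fell and 2 rose (median -0.19).

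Genes of other names lie inside the same spans. All tested genes that are not members were counted, so other zinc finger genes and near copies were not set apart. Over all genes 20.2% fell and 19% rose. Inside the chromosome 13 span 9 of 14 other tested genes fell and none rose (edgeR). Inside the chromosome 2 span 8 of 14 fell, and inside the chromosome 4 span 2 of 6 rose and none fell. Inside the first chromosome 17 span 0 of 4 other genes were called, and inside the second 1 of 3 fell. On chromosome 7, 5 of 9 fell and 1 rose inside the span that starts at 41282627. In the spans there that start at 126843446 and 6134490, 2 of 5 and 1 of 6 fell. Inside the chromosome 6 span 1 of 14 fell and 1 rose, and the chromosome 8 span held no other tested gene. No test of clusters against each other was made.

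**Figure D3:**
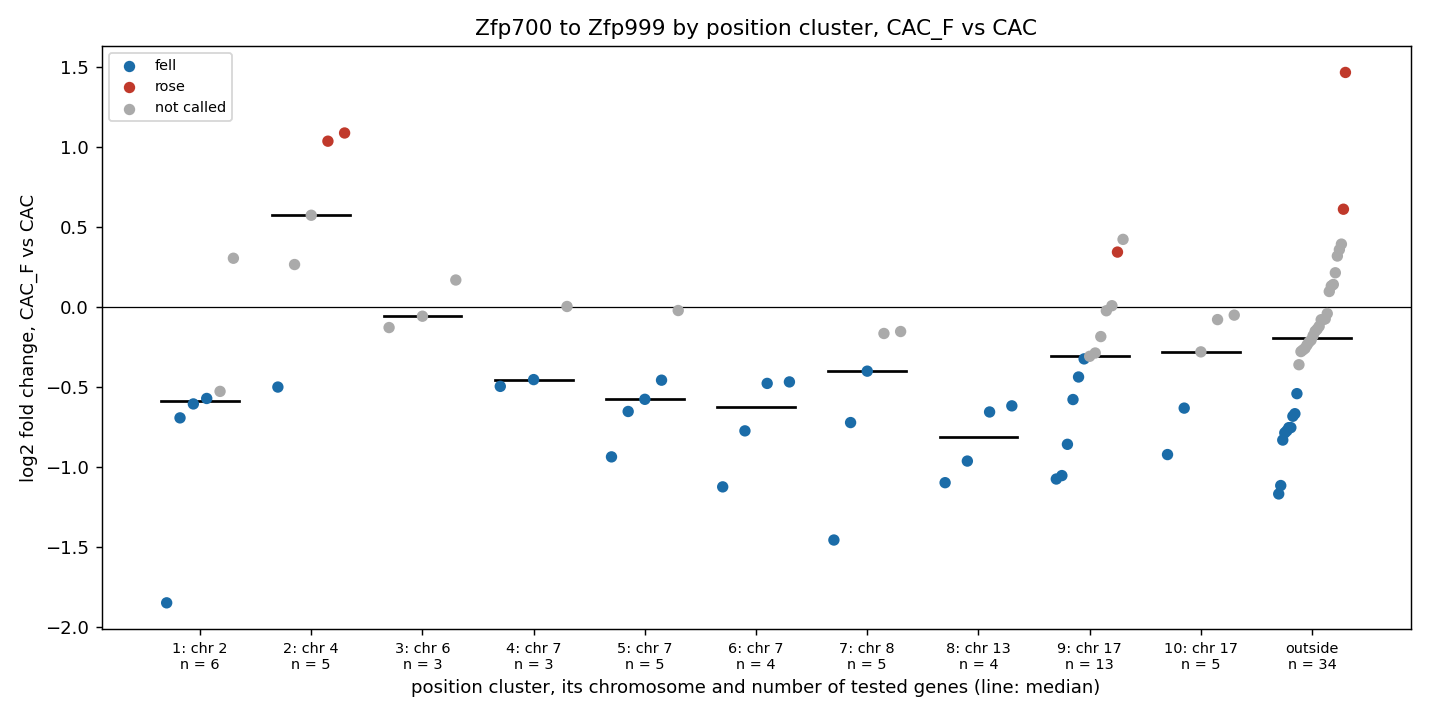
Log2 fold change of CAC_F against CAC for each tested member, by position cluster and outside the clusters; lines are medians. The chromosome 4 cluster has a median of 0.57, and the medians of the others lie between -0.81 and -0.06.

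By structure, 33 of 67 tested members with a KRAB A box fell and 4 rose (median log2 fold change -0.36), which is 49.25% and 5.97%. Of 20 tested without one 7 fell and 1 rose (median -0.11), which is 35% and 5%. Among members with less than 20% shared words 34 of 76 fell and 3 rose (median -0.28), which is 44.7% and 3.95%. Among those with more 6 of 11 fell and 2 rose (median -0.57), which is 54.55% and 18.2%. Over all genes 20.2% fell and 19% rose. These differences between sets of members were not tested. Promoters of members that fell held CCAAT in 68.3% and GGAAGT in 58.5% of 41 windows, and those of members not called held them in 56.8% and 31.8% of 44 windows. TATAAA was found in 0 of the 41 and in 13.6% of the 44. The windows of near copies count several times here.

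Of 27 tested genes on a list of the KRAB co-repressor complex 8 rose and 1 fell in CAC_F against CAC (median log2 fold change 0.17). That is 29.6% and 3.70%, beside 19% and 20.2% of all genes, and the list was not tested as a set. Trim28 was at 198 ± 12.4 CPM in CAC and 181 ± 17.9 in CAC_F (SD, n = 5 each), with a log2 fold change of -0.13 ± 0.08 (SE, edgeR, adjusted p = 0.207). Setdb1 was at 56.2 ± 4.49 CPM in CAC and 47.8 ± 10.8 in CAC_F (SD, n = 5 each), with a log2 fold change of -0.24 ± 0.12 (SE, edgeR, adjusted p = 0.106). Pphln1, a subunit of the HUSH silencing complex, rose by a log2 fold change of 0.53 ± 0.10 (SE, edgeR, adjusted p = 0.000534). Tasor, another HUSH subunit, was the one that fell, with -0.61 ± 0.19 (SE, edgeR, adjusted p = 0.0135). Uhrf1 and Dnmt1, which maintain DNA methylation at replication, rose with log2 fold changes of 1.04 ± 0.30 and 0.64 ± 0.17 (SE, edgeR, adjusted p = 0.00805 and 0.00556).

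The next comparison asks what the probiotics added to FOLFOX. No member was called between CAC_FP and CAC_F with edgeR, as for all genes (0%). At an unadjusted p below 0.05 there were 24 of 87 members, 27.6% against 15.9% of all genes. DESeq2 called 2, both higher in CAC_FP (2.3%, against 0.809% of all genes), and the limma-voom fits called 0. Without CAC_F replicate 3, 7 members were higher (8.05%) and 2 lower (2.3%) in CAC_FP by edgeR, where 2.42% of all genes were higher and 1.66% lower, so that 1 library decides these counts. The median log2 fold change of the members was 0.13, against 0.00 over all genes. Zfp931 had the smallest unadjusted p, with a log2 fold change of 1.23 ± 0.34 (SE, edgeR, adjusted p = 0.132), and its CAC_FP libraries (3.58 to 4.68 CPM) lay above its CAC_F libraries (0.43 to 3.34 CPM). Its adjusted p ranged from 0.0186 to 0.969 over 20 alternatives. Zfp952 and Zfp777 had log2 fold changes of 0.45 ± 0.13 and -0.38 ± 0.12 (SE, edgeR, adjusted p = 0.146 and 0.152).

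Adding loperamide to FOLFOX and probiotics gave no call either. With edgeR 0 of 87 members and 0% of all genes were called between CAC_FPL and CAC_FP. There were 2 members at an unadjusted p below 0.05 (2.3%, against 6.6% of all genes), and DESeq2 called 0. Limma-voom with library weights called 1 higher and 3 lower in CAC_FPL, where it called 2.23% of all genes in each direction. Zfp809 had a log2 fold change of -0.43 ± 0.13 (SE, edgeR, adjusted p = 0.589), with 23.3 to 30.1 CPM in CAC_FPL and 27.9 to 48.0 CPM in CAC_FP. Zfp768 had 0.44 ± 0.21 (SE, edgeR, adjusted p = 0.748), and its CAC_FPL libraries ranged from 15.6 to 36.9 CPM, across the ranges of CAC_F and CAC. Of the 40 members that fell in CAC_F, 31 had a log2 fold change above 0 and 9 below 0 in this comparison (median 0.08). Over all 15080 genes 7966 were above 0 and 7114 below 0 (median 0.01). The calls of those 40 came from 1 fit of all 27 libraries with a shared estimate of the spread. Members are also not replicates of a group, so this tally is a description only.

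Each treated group was also set against CAC, and the 3 comparisons share those 5 CAC mice. In CAC_FP 14 members fell and 2 rose (edgeR), where 8.9% of all genes fell and 9.68% rose. The members' median log2 fold change was -0.21, against -0.03 over all genes. The count that fell was 8 without CAC replicate 3 or without CAC replicate 4, 7 without CAC_FP replicate 1 or without CAC_FP replicate 2, and 5 without CAC_FP replicate 3. In those fits, in that order, 6.86%, 5.1%, 5.95%, 4.42% and 4.01% of all genes fell. With the smooth muscle level as a covariate the count of members was 5, or 5.75% of members against 5.82% of all genes. Zfp963 fell with a log2 fold change of -0.93 ± 0.17 (SE, edgeR, adjusted p = 0.00187) and Zfp768 with -0.74 ± 0.22 (SE, edgeR, adjusted p = 0.0217). Zfp707 fell with -0.71 ± 0.19 and Zfp715 with -0.66 ± 0.15 (SE, edgeR, adjusted p = 0.0134 and 0.00512). Zfp963 and Zfp715 were called in all 20 alternatives. Zfp768 was not called in 5 of them and Zfp707 in 2, and these included the smooth muscle covariate and the fit without CAC_FP replicate 3 for both genes. Zfp809 and Zfp991 rose, with 0.52 ± 0.13 and 0.83 ± 0.22 (SE, edgeR, adjusted p = 0.0105 and 0.0138).

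In CAC_FPL 2 members fell and none rose against CAC, where 0.524% of all genes fell and 0.882% rose. They were Zfp963, with a log2 fold change of -0.75 ± 0.16, and Zfp868, with -0.39 ± 0.09 (SE, edgeR, adjusted p = 0.023 and 0.0367). Zfp868 was at 37.0, 40.2, 45.7, 51.9 and 53.0 CPM in CAC and 31.9 to 37.8 CPM in CAC_FPL (median 34.5), which overlapped slightly. Over 21 alternatives the call was lost in 7 for Zfp963 and in 12 for Zfp868. Leaving out 1 library moved this count between 0 and 4. It was 0 without CAC replicate 3, without CAC replicate 4, without CAC_FPL replicate 4 or without CAC_FPL replicate 5. It was 1 without CAC replicate 5, without CAC_FPL replicate 1 or without CAC_FPL replicate 6, and 4 without CAC_FPL replicate 3. Of all genes 0.0531% to 0.186% fell in the fits with a count of 0. The share was 0.206% to 0.265% in those with a count of 1, and 1.74% without CAC_FPL replicate 3. For the 40 members that fell in CAC_F, the median log2 fold change against CAC was -0.69 in CAC_F, -0.39 in CAC_FP and -0.28 in CAC_FPL, and 39 of them had their lowest group mean in CAC_F. That order is partly fixed by the choice of those 40 in CAC_F.

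**Figure D4:**
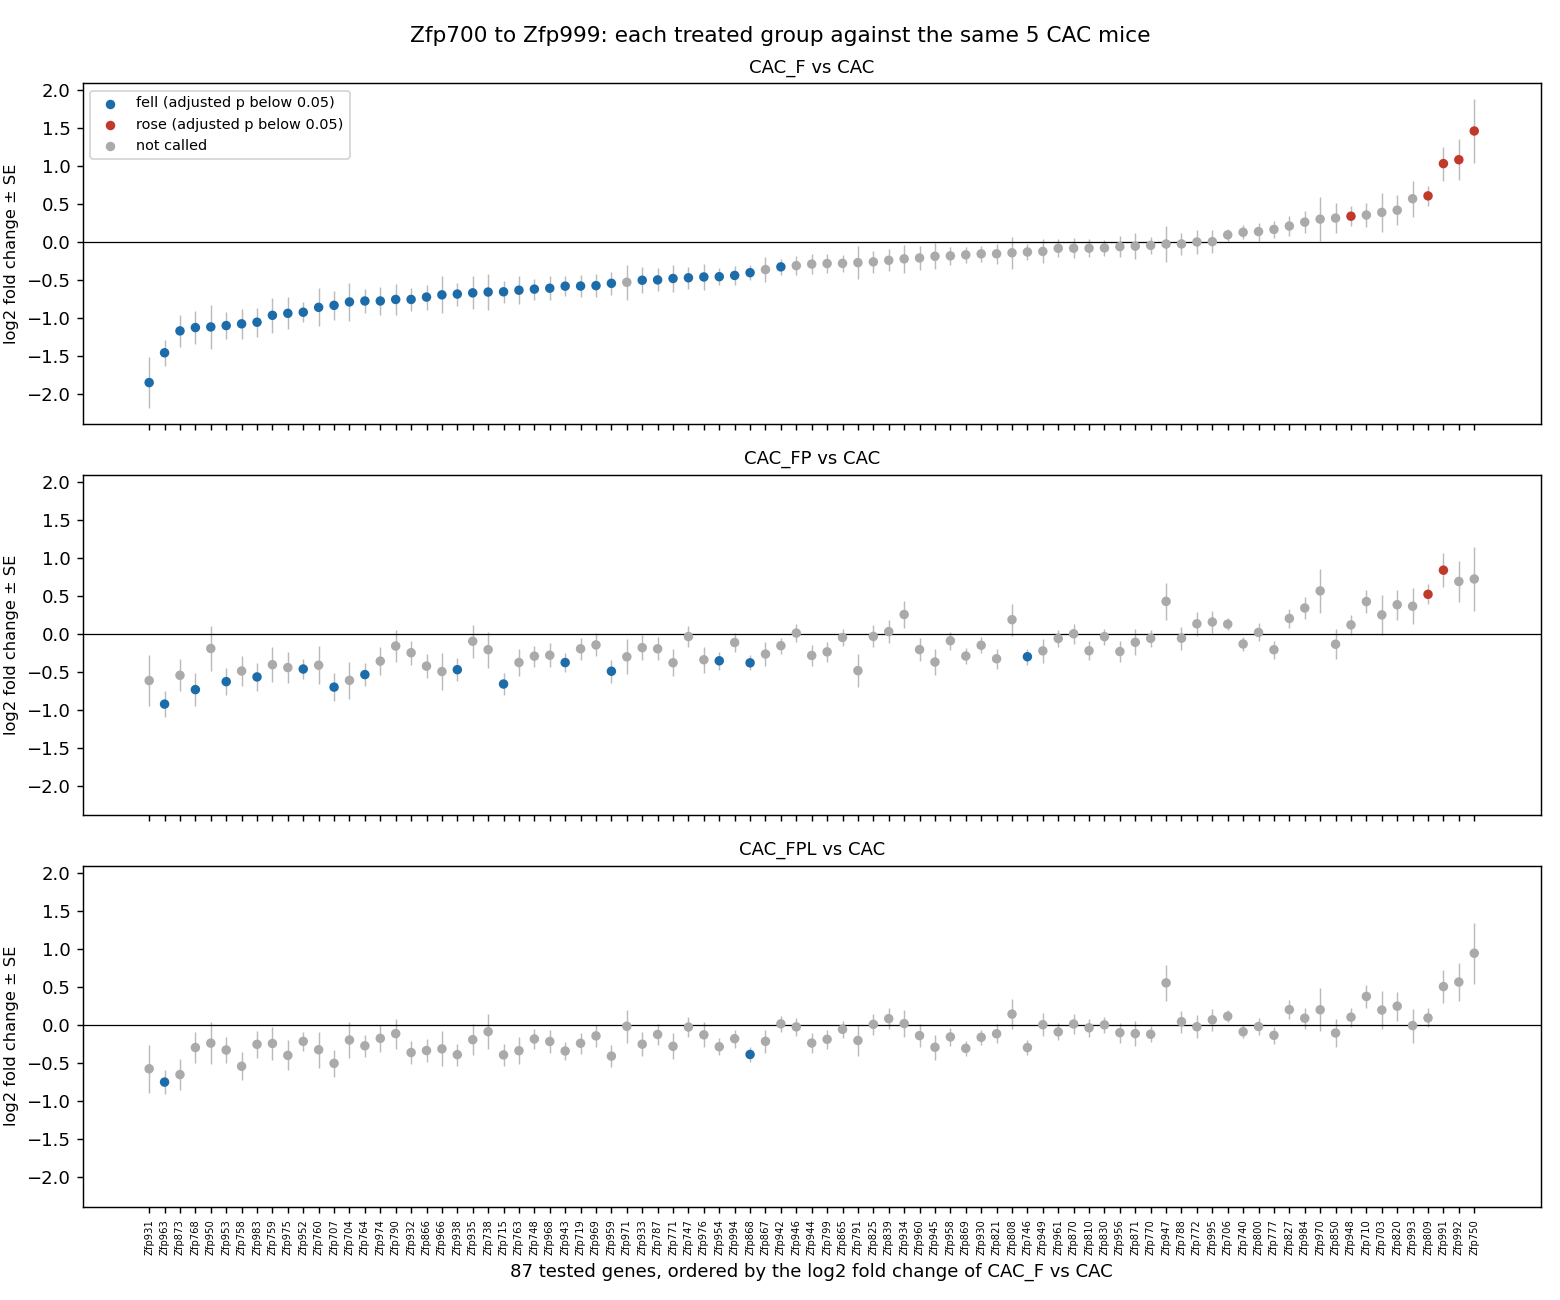
Log2 fold change ± SE of each of the 87 tested members in CAC_F, CAC_FP and CAC_FPL against the same 5 CAC mice, in the order of the first panel. Blue points fell and red points rose at an edgeR adjusted p below 0.05: 40 and 5 in CAC_F, 14 and 2 in CAC_FP, 2 and 0 in CAC_FPL.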

How the data were processed

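Per the submitters' processing notes, cutadapt 1.9, FastQC and HISAT2 were used. No source used here names the counter, the gene models or the genome build. Libraries were stranded mRNA libraries made with the dUTP method, and 1 batch was given, per the labels. For each library the authors deposited unnormalized whole-number counts of every gene, and beside them FPKM with 2 decimals. How reads that fit several copies were counted is not stated, so values of near copies are uncertain.

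From the deposited counts, the 5 group means were estimated in 1 fit of all 27 libraries, using edgeR 4.0.16 (quasi-likelihood test, trimmed means of M values, TMM) in R 4.3.3, over the 15080 genes with FPKM of at least 1 in at least 5 libraries. P-values were adjusted by Benjamini and Hochberg over all 15080 genes, within each of 6 comparisons, and calls were made below 0.05. The SE was obtained by dividing the size of the log2 fold change by the square root of the F statistic. The script was tested on simulated data. Alternatives used limma 3.58.1 and DESeq2 1.42.0. The members, gene lists and tests were chosen with earlier results of these data known.

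Named genes were, in each of the first 4 comparisons, up to 10 called members per direction with the largest fold change among those whose groups do not overlap. Where none was called, the 3 with the smallest unadjusted p were named. To these were added the 5 highest by FPKM, up to 2 per cluster, and 9 genes with known functions, Zfp711 among them, which was not tested. Near copies were found as 100-base words shared with transcripts of another gene (GENCODE M21), fingers and KRAB A boxes as amino acid patterns in the longest open reading frames, and promoters came from RefSeq (GRCm38.p6). Replicate numbers were checked for pairing. Same-numbered libraries did not deviate together in every pair, so no block was used. In CAC_F against CAC every pair had a positive correlation, from 0.0163 to 0.258, whereas each of the other comparisons held negative ones. The SE and p-values rest on the spread between the 5 or 6 mice of each group, at 56687812 to 79709845 counts per library.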

Additional observations from a re-analysis of the deposited data

Results flagged for a closer look

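Among 225 sets of values (44 named members and the family sum, in each of 5 groups), 17 had 1 library farther from the others than Dixon's limit at 95%, where chance flags about 1 in 20. All values are CPM, given with the range of the rest of the group. In CAC_F, Zfp703 was at 147 in replicate 1 (others 49.8 to 77.7), Zfp788 at 16.5 in replicate 2 (11.5 to 12.9), Zfp830 at 17.7 in replicate 3 (12.6 to 14.0) and Zfp970 at 12.8 in replicate 2 (3.98 to 6.29). In CAC_FP, Zfp970 was at 10.5 in replicate 1 (7.21 to 7.40) and Zfp711 at 5.93 in replicate 4 (1.49 to 2.49). Replicate 3 of CAC_FP was low for Zfp715 at 15.4 (20.5 to 22.5) and Zfp740 at 68.0 (85.4 to 91.9).

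In CAC_FPL, replicate 3 was high for Zfp711 at 11.8 (1.82 to 4.49), Zfp750 at 24.5 (5.60 to 11.5) and Zfp953 at 8.11 (5.39 to 6.06). Zfp932 was at 11.9 in CAC_FPL replicate 1 (9.10 to 10.0), and Zfp931 at 1.97 in CAC_FPL replicate 5 (3.85 to 4.94). In NC, Zfp748 was at 20.4 (12.0 to 14.5) and Zfp992 at 5.32 (3.54 to 4.14) in replicate 5, and Zfp771 was at 32.7 in replicate 2 (13.8 to 19.3). In CAC, Zfp759 was at 6.25 in replicate 2 (7.44 to 7.90). Why these libraries stood apart was not tested.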

How the results depend on the processing

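Counts of members called in CAC_F against CAC were 40 fell and 5 rose. The count that fell was 26 without CAC_F 1 and CAC_F 2, and the count that rose was 8 with voom on quantile-normalized values and 3 among members with under 20% shared words, and both stayed within 1.5 times under the other alternatives. Of all genes 11.4% fell without CAC_F 1 and CAC_F 2, and 19.5% rose with voom on quantile-normalized values. In CAC_FP against CAC_F the main count was 0, DESeq2 gave 2 higher, and leaving out 1 library gave 0 to 7 higher and 0 to 2 lower. In CAC_FPL against CAC_FP voom with library weights gave 1 higher and 3 lower. In CAC_FP against CAC, 14 fell and 2 rose. The count that fell was 4 with no filter, 30 with voom library weights, 5 with the smooth muscle covariate and 5 to 17 with 1 library left out. Of all genes 8.9% fell in the main fit. In those settings, in the same order, 1.94%, 17%, 5.82% and 4.01% to 10.2% of all genes fell. The count that rose was 4 with DESeq2, 5 with either voom fit and 1 among members with under 20% shared words. Of all genes 9.68% rose in the main fit and 12.8% with DESeq2. With voom 17.4% rose with library weights and 10% on quantile-normalized values. In CAC_FPL against CAC, 2 fell; the count was 0 with no filter, with the smooth muscle covariate (where 1 rose) and with only the groups compared. It was 1 with the filter on counts and 1 among members with under 20% shared words, 9 with voom library weights, 5 without CAC 2 and CAC_FPL 3, and 0 to 4 with 1 library left out. Of all genes 0.524% fell in the main fit, 0.0553% with no filter, 0.378% with the covariate and 0.0265% with only the groups compared. That share was 0.17% with the filter on counts, 2.88% with voom library weights and 2.82% without CAC 2 and CAC_FPL 3. With 1 library left out it was 0.0531% to 1.9%. The cause of these shifts was not tested, other than fewer genes or libraries where the setting itself removes them.

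With the replicate block, a pairing that the libraries did not show in every comparison, 40 fell and 7 rose in CAC_F against CAC. Against CAC, 4 rose in CAC_FP and 1 fell in CAC_FPL. With the block 19.8% of all genes fell and 18.2% rose in CAC_F against CAC. Against CAC, 9.25% rose in CAC_FP and 0.219% fell in CAC_FPL. The 2 alternatives on shared words and on CAC_F 1 and CAC_F 2 were chosen after seeing the data. Clusters numbered 10 with a gap of 0.5 Mb and 12 with 2 Mb. A restriction to members below a limit of protein identity was not run.

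Members not called in CAC_F against CAC changed sign as follows. Zfp706 was at a log2 fold change of -0.032 with the smooth muscle covariate, and Zfp777 at -0.033 and Zfp830 at 0.044 without CAC_F 1 and CAC_F 2. Zfp871 was at 0.016 without CAC 2 and CAC_FPL 3. Zfp788 was at 0.024 with no filter, 0.057 with voom on quantile-normalized values, 0.181 with the smooth muscle covariate and 0.003 with only the groups compared. With 1 library left out, Zfp788 ranged from -0.106 to 0.055, Zfp871 from -0.175 to 0.024 and Zfp970 from -0.052 to 0.528. All 130 alternative medians of the members moved by less than 0.119, the pooled SD of the mean log2 CPM of tested members within groups. That limit is wide beside the main medians of 0.08 in CAC against NC and 0.04 in CAC_FPL against CAC_FP. There a median that vanished would also have passed. Of 1304 alternative values for 63 gene results, 1141 kept direction and side of the threshold and 128 lost the call.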
